A study of Mus musculus with 17 samples.

Results

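The data described here are the Tri-C contacts of the mouse beta-globin locus in erythroid cells, read from 2 viewpoints: HS2, a hypersensitive site inside the locus control region (LCR), and a CTCF site on the other side of the gene cluster. All 10 erythroid libraries of the series' 17 libraries were used, and their technical replicates (3, 3 and 4 per biological replicate) were summed to 3 biological replicates. Each replicate gave counts from both viewpoints, so the comparison is paired within replicates. The erythroid cells were Ter-119+ cells of the spleens of female C57BL/6 mice that had received 3 doses of phenylhydrazine (40 mg/g body weight, 12 hours apart) and were killed after 5 days. Phenylhydrazine destroys red cells, and the spleen then fills with erythroid precursors. The other 7 libraries (3 biological replicates) came from E14 ES cells of strain 129/Ola, in which the globin genes are inactive, and are used here only as a contrast. Since each cell type is of its own strain, an effect of cell type and of strain cannot be told apart there. Whether the biological replicates were separate animals, pools or cultures is not in the labels, so the p-values measure the spread between these samples, which may be technical.

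Tri-C records which stretches of a chromosome lie close together. Chromatin is fixed, cut with NlaIII, which recognises CATG, and ligated, so that fragments close together in the nucleus end up in the same DNA molecule; a read that holds the viewpoint and further fragments reports several partners of the viewpoint on a single allele. The beta-globin genes are arranged in the order in which they are used in development. Hbb-y and Hbb-bh1 encode embryonic beta-like chains and lie nearest to the LCR, and Hbb-bs and Hbb-bt encode the adult chains and lie farthest from it. The LCR is the group of enhancers, HS1, HS2, HS3 and others, that drives these genes in erythroid cells. CTCF is a DNA-binding protein that, with cohesin, marks the borders of many chromatin loops, and its sites flank the globin locus. HS-60/-62 is a group of hypersensitive sites far upstream of the genes.

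All positions are mm9. In both tables, the viewpoint showed as the longest stretch with no listed fragment: chromosome 7 from 111008334 to 111011358 for HS2 and from 110954158 to 110956820 for the CTCF site, with centres at 111009846 and 110955489, 54.4 kb apart. Pairs with both fragments between 110850001 and 111150000 were used. Every pair adds a contact for each of its fragments, and levels are contacts per 1000 such pairs, so a level is a share of a fixed total and a gain in 1 place lowers the rest. The range was divided into 13 segments, without the 5 kb around either centre. From the downstream to the upstream end, the first are the downstream flank, Hbb-bt (110960847 to 110962846, a window also labelled Hbb-b2) and the stretch to Hbb-bs. Then come Hbb-bs (110974847 to 110976846, also labelled Hbb-b1), the stretch to Hbb-bh1, Hbb-bh1 (110989847 to 110991846) and the stretch to Hbb-y. Next are Hbb-y (110999847 to 111001846), the stretch to HS1 and the LCR beyond HS3 (111014847 to 111023846). The last are the upstream flank, HS-60/-62 (111060847 to 111065846) and the far upstream flank. The gene windows are 2 kb wide; no mm9 annotation was used, and exons, introns and UTRs are not separated within them. Of 23 CATG sites in the RefSeq promoters of 17 genes around Hbb-y, 21 fell on fragment boundaries at a single offset between the builds, against 4 at the next best offset, and at that offset all 4 gene spans lay inside their windows. The windows of the LCR beyond HS3 and HS-60/-62 were placed by distance from HS2 and had no such check.

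The adult genes are near-copies of each other, which limits what their windows can show. The RefSeq promoters (GRCm38.p6, minus strand, 250 bases before the start) of Hbb-bs at chr7:103827929-103828178 and Hbb-bt at chr7:103813924-103814173 are shown because these upstream stretches differ between the copies, and that of Hbb-y at chr7:103853208-103853457 because it holds cutting sites. Capitals mark CATG, the NlaIII site at which fragments end.
Hbb-bs: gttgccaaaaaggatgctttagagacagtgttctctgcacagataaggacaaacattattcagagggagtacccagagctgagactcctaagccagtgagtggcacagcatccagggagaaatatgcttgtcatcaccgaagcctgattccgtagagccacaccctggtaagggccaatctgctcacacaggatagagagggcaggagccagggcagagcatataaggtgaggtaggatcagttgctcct
Hbb-bt: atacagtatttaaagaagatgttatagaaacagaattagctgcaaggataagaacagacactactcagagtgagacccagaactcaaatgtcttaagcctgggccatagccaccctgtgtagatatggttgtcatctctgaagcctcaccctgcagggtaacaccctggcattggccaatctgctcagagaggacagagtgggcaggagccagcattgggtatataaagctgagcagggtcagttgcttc
Hbb-y: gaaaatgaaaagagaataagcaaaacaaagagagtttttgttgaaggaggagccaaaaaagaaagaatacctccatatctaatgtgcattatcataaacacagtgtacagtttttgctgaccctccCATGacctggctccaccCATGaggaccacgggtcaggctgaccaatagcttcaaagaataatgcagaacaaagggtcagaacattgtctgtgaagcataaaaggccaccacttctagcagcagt
The Hbb-bs and Hbb-bt promoters were identical at 70.9% of 261 aligned positions and hold no CATG, so each lies whole inside 1 fragment. The Hbb-y promoter holds 2, and 53.9% of the 32851 promoters in the table hold at least 1 in the same 250 bases (both strands, since the site is its own reverse complement).

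Inside the genes the fragments of the copies had nearly equal counts. A run of 3 consecutive fragments has the same lengths (122, 102 and 25 bases) in both windows, 14009 bases apart. Over these and the fragment on either side of them, the erythroid counts of the Hbb-bs and the Hbb-bt copy differed by at most 0.07 on the log2 scale from HS2 and 0.06 from the CTCF site. Pairs that join the Hbb-bt with the Hbb-bs window made up 52.2% ± 1.80 (SD, n = 3) of all Hbb-bt contacts from HS2 and 47.8% ± 0.30 from the CTCF site, and 97.3% and 97.1% of those pairs joined 2 of these 5 + 5 fragments. The Hbb-bt and Hbb-bs values below are therefore not independent of each other, and the segment differences, pairs with the LCR and cell type terms are also given without those fragments; how reads were assigned to either copy was not tested.

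The replicates held 24102, 23743 and 83266 pairs in the range from HS2 and 62130, 56560 and 178765 from the CTCF site, which was 7.75% to 17.9% of each table's total. Pairs of directly neighbouring fragments made up 44.4% ± 2.71 of the pairs from HS2 and 40.6% ± 2.32 from the CTCF site (SD, n = 3). Many counts repeat the same pair: a pair present in a library was counted 2.43 to 3.48 times on average in the 3 first technical replicates and 8.42 to 13.6 times in the other 7. Counts are of reads, with no molecular identifier to tell molecules apart, so intervals cover counting error only, and values with every fragment pair counted a single time per library are given beside several results.

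Seen from HS2, the erythroid contacts lay in the gene cluster and the LCR, whereas from the CTCF site they lay mainly outside both. The segments between the viewpoints, from Hbb-bt to HS1, took 54.6%, 49.2% and 46.5% of the contacts in segments from HS2 and 19.3%, 17.0% and 22.0% from the CTCF site, in replicates 1, 2 and 3. The downstream flank took 9.72%, 8.69% and 12.2% from HS2 and 36.9%, 41.9% and 33.6% from the CTCF site. In both regions the replicates of the viewpoints did not overlap. Upstream of HS2 they did overlap, with a mean share of 39.7% ± 3.48 from HS2 and 43.1% ± 1.76 from the CTCF site. The differences were 30.7 ± 5.55 percentage points between the viewpoints and -27.3 ± 5.91 in the downstream flank (SD, n = 3), each in 3 of 3 replicates; the exact paired permutation test, two-sided, gave p = 0.25 for both, the smallest p that 3 replicates allow.

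The contacts were also spread differently by distance. Within 5 kb of its own centre HS2 had 17.5% ± 0.98 of its contacts and the CTCF site 7.47% ± 0.40 (SD, n = 3). Towards the other viewpoint, HS2 had 29.2% ± 3.86 of its contacts at 20 to 50 kb and 6.80% ± 1.55 at 50 to 100 kb, whereas the CTCF site had 11.1% ± 1.83 and 26.7% ± 1.93. The 20 to 50 kb stretch from HS2 holds both adult genes and the stretch up to Hbb-bh1, and the 50 to 100 kb stretch from the CTCF site holds the LCR and most of the upstream flank. Away from the other viewpoint, at 20 to 50 kb, the shares were 7.22% ± 0.77 from HS2 and 12.8% ± 1.68 from the CTCF site. The contacts between the viewpoints overlapped in share: 2.64%, 3.03% and 3.14% of HS2's contacts lay within 5 kb of the CTCF site, and 2.55%, 2.53% and 4.06% of the CTCF site's contacts lay within 5 kb of HS2 (difference -0.11 ± 0.73 percentage points, exact p = 1). Pairs with a fragment on either side of the viewpoint made up 12.3% ± 1.76 from HS2 and 13.7% ± 2.41 from the CTCF site.

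Of the 13 segments, 8 had more contacts from HS2 (61.5% of those tested) and 4 fewer (30.8%), called at a Benjamini-Hochberg adjusted p under 0.05 in edgeR's quasi-likelihood test with the replicate as a block. The log2 values below are HS2 minus CTCF. In all 13 segments, called or not, the replicates of the viewpoints did not overlap. Non-overlap therefore sets none of these segments apart. The division between the viewpoints followed the gene cluster: the 8 were the 4 gene windows, the stretches from Hbb-bs to HS1 and the LCR beyond HS3, and the 4 were both downstream and upstream flanks, the far upstream flank and HS-60/-62.

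**Figure D1:**
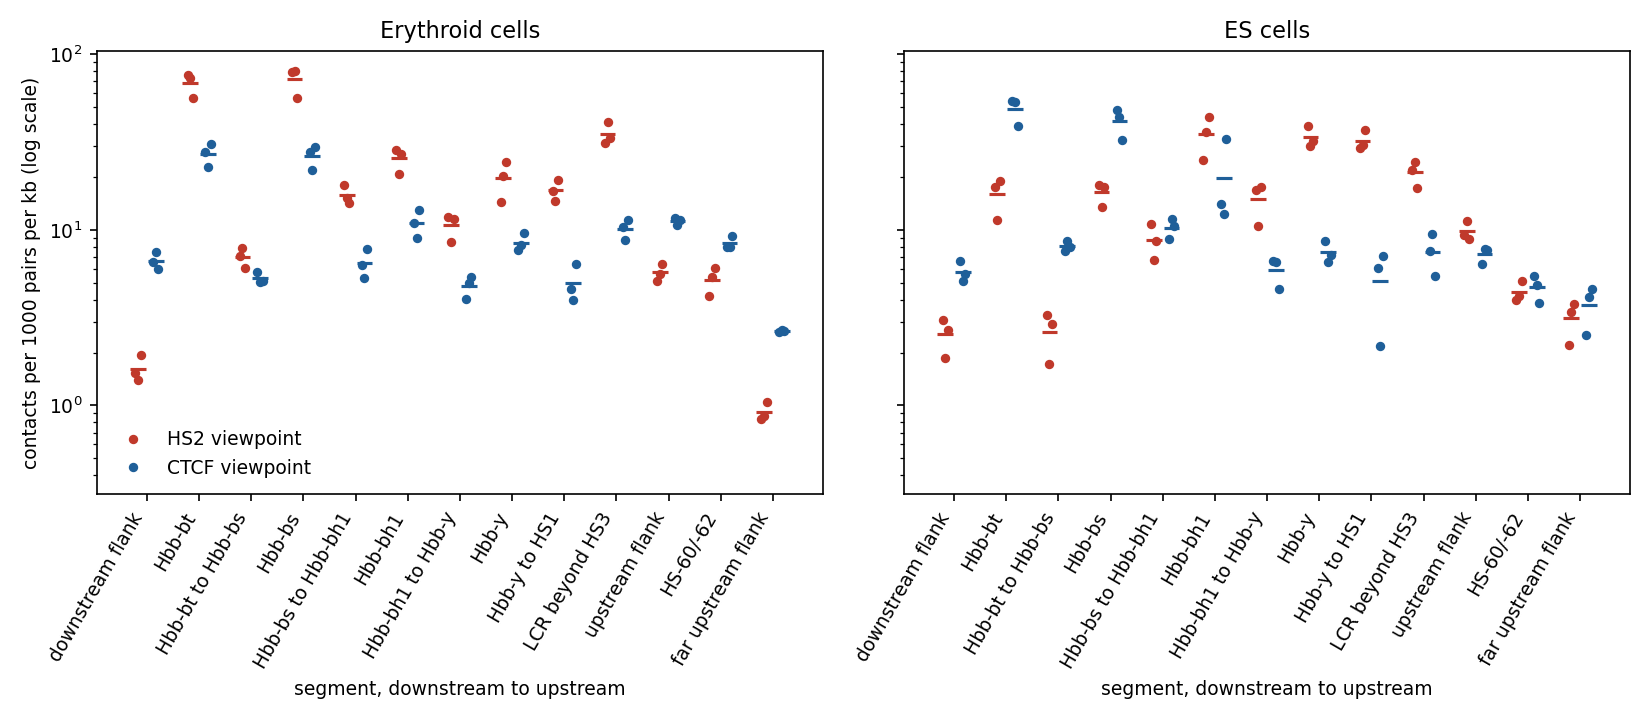
Contacts per 1000 pairs and per kb of segment (vertical, log scale) in each of 13 segments (horizontal, from downstream to upstream), for the HS2 and CTCF viewpoints, in erythroid cells at left and ES cells at right; points are the 3 replicates and bars their means. In erythroid cells the HS2 points lie above the CTCF points from Hbb-bt to the LCR beyond HS3 and below them in the flanks; in ES cells they lie below at Hbb-bt and Hbb-bs, with means of 15.9 against 48.9 at Hbb-bt.

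Among the adult genes, Hbb-bt had 153, 146 and 112 contacts per 1000 pairs from HS2 and 55.6, 45.7 and 61.4 from the CTCF site. All HS2 values were above all CTCF values, although the window's midpoint lies 48 kb from HS2 and 6.4 kb from the CTCF site. The difference was 1.34 (SE 0.25, adjusted p = 2.23e-05). Hbb-bs had 158, 161 and 113 contacts from HS2 and 55.2, 43.7 and 59.2 from the CTCF site, again without overlap (1.44, SE 0.26, adjusted p = 1.15e-05). Without the fragments that the copies share, the Hbb-bt difference was 0.39 and was not called (edgeR adjusted p = 0.214), whereas that of Hbb-bs was 2.21 (adjusted p = 4.87e-08). The 12 kb between them had 84.0 ± 10.7 contacts from HS2 and 63.7 ± 4.75 from the CTCF site and was the segment not called (0.39, SE 0.22, adjusted p = 0.0886). It was called without the shared fragments (0.47, edgeR adjusted p = 0.0148) and with every fragment pair counted a single time per library (0.59, adjusted p = 0.032). Without replicate 1 the stretch from Hbb-bs to Hbb-bh1 (1.296, SE 0.26, adjusted p = 5.00e-05) was at 1.18 and was not called (edgeR adjusted p = 0.0869).

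The embryonic genes, which definitive erythroid cells hardly use, also had more contacts from HS2. Hbb-bh1 had 56.9, 41.6 and 54.4 contacts per 1000 pairs from HS2 and 21.7, 17.9 and 25.9 from the CTCF site (1.22, SE 0.16, adjusted p = 1.56e-07). Hbb-y had 28.8, 40.5 and 48.6 from HS2 and 15.4, 16.3 and 19.1 from the CTCF site (1.19, SE 0.14, adjusted p = 3.70e-08). For neither gene did the viewpoints overlap. Per kb of window, the levels from HS2 were 72.0 ± 13.3 at Hbb-bs and 68.5 ± 10.8 at Hbb-bt (SD, n = 3). They were 25.5 ± 4.10 at Hbb-bh1 and 19.7 ± 4.97 at Hbb-y. The adult genes, which lie farther away, thus had the higher levels with their shared fragments included. Pairs joining both adult windows made up 52.2% of the Hbb-bt and 49.9% of the Hbb-bs contacts from HS2. The order without the shared fragments was not tested. Hbb-bh1 and Hbb-y did not differ beyond their spread. The levels of Hbb-bs and Hbb-bt cannot be compared from either viewpoint, because the fragments that they share had nearly equal counts. From the CTCF site the order by mean was Hbb-bt, Hbb-bs, Hbb-bh1 and Hbb-y, at 27.1 ± 3.97, 26.3 ± 4.01, 10.9 ± 2.01 and 8.46 ± 0.97. The stretches between genes lay lower than the genes on either side: from HS2, 6.998 ± 0.89 per kb between Hbb-bt and Hbb-bs, 15.8 ± 1.99 between Hbb-bs and Hbb-bh1 and 10.6 ± 1.82 between Hbb-bh1 and Hbb-y.

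The LCR beyond HS3, the enhancers on the far side of HS2 from the genes, had 283, 370 and 298 contacts per 1000 pairs from HS2 and 92.8, 78.3 and 103 from the CTCF site. The HS2 values were all above the CTCF values, by 1.79 (SE 0.26, adjusted p = 5.30e-07). The stretch from Hbb-y to HS1 differed by 1.77 (SE 0.16, adjusted p = 1.93e-10). Both lie next to HS2, with midpoints 9.5 and 6.5 kb from its centre and 63.9 and 47.9 kb from the CTCF site.

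Outside the cluster the order turned. The downstream flank had 153, 140 and 194 contacts per 1000 pairs from HS2 and 662, 753 and 598 from the CTCF site (-2.05, SE 0.23, adjusted p = 1.11e-08). The upstream flank, which is nearer to HS2 than to the CTCF site, had 189, 207 and 238 from HS2 and 434, 394 and 419 from the CTCF site (-0.98, SE 0.23, adjusted p = 0.000295). HS-60/-62, 53.5 kb from HS2 and 107.9 kb from the CTCF site, had 20.9, 27.0 and 30.2 from HS2 and 39.8, 39.9 and 46.0 from the CTCF site (-0.70, SE 0.16, adjusted p = 0.000159). In these 3 segments and in the far upstream flank (-1.53, SE 0.26, adjusted p = 8.14e-06) no HS2 value reached a CTCF value. Without replicate 3, HS-60/-62 (-0.75, edgeR adjusted p = 0.0503) and the stretch from Hbb-bh1 to Hbb-y (1.16 against 1.14 with it, adjusted p = 0.0726) were not called.

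With every fragment pair counted a single time per library, the 8 and the 4 segments were called in the same direction, with the differences in the flanks nearer to 0: -1.49 downstream, -0.47 upstream, -0.39 at HS-60/-62 and -1.11 far upstream. The scale decides part of this. With DESeq2's size factors, which centre the median of the features, 2 segments had more contacts from HS2 and 5 fewer; with edgeR's TMM factors there were 3 and 5. Then the stretch between Hbb-bt and Hbb-bs turned to -0.65 and -0.55, and Hbb-bt, at 0.29 and 0.39, and Hbb-bs, at 0.40 and 0.50, were no longer called. Nor were Hbb-y, at 0.16 and 0.26, and the stretches from Hbb-bs to Hbb-bh1 and from Hbb-bh1 to Hbb-y, while Hbb-bh1 lost its call with DESeq2 (0.19) and kept it with TMM factors (0.29). The LCR beyond HS3 and the stretch from Hbb-y to HS1 were called under both.

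Bins of 2 kb show where within the segments the viewpoints differed. A bin was left out only if its own centre lay within 5 kb of a viewpoint centre. The bins next to these zones, such as that from 111014001 to 111016000, therefore reach partly into them. Of 137 bins tested, 19 had more contacts from HS2 (13.9%) and 75 fewer (54.7%), with a median difference of -1.59. Between the viewpoints 15 of 22 bins were higher from HS2 and 0 lower; up to 14 kb upstream of HS2, 4 of 5 were higher and 0 lower. In the downstream flank 44 of 50 bins were lower from HS2, and beyond 14 kb upstream of HS2, 31 of 60.

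**Figure D2:**
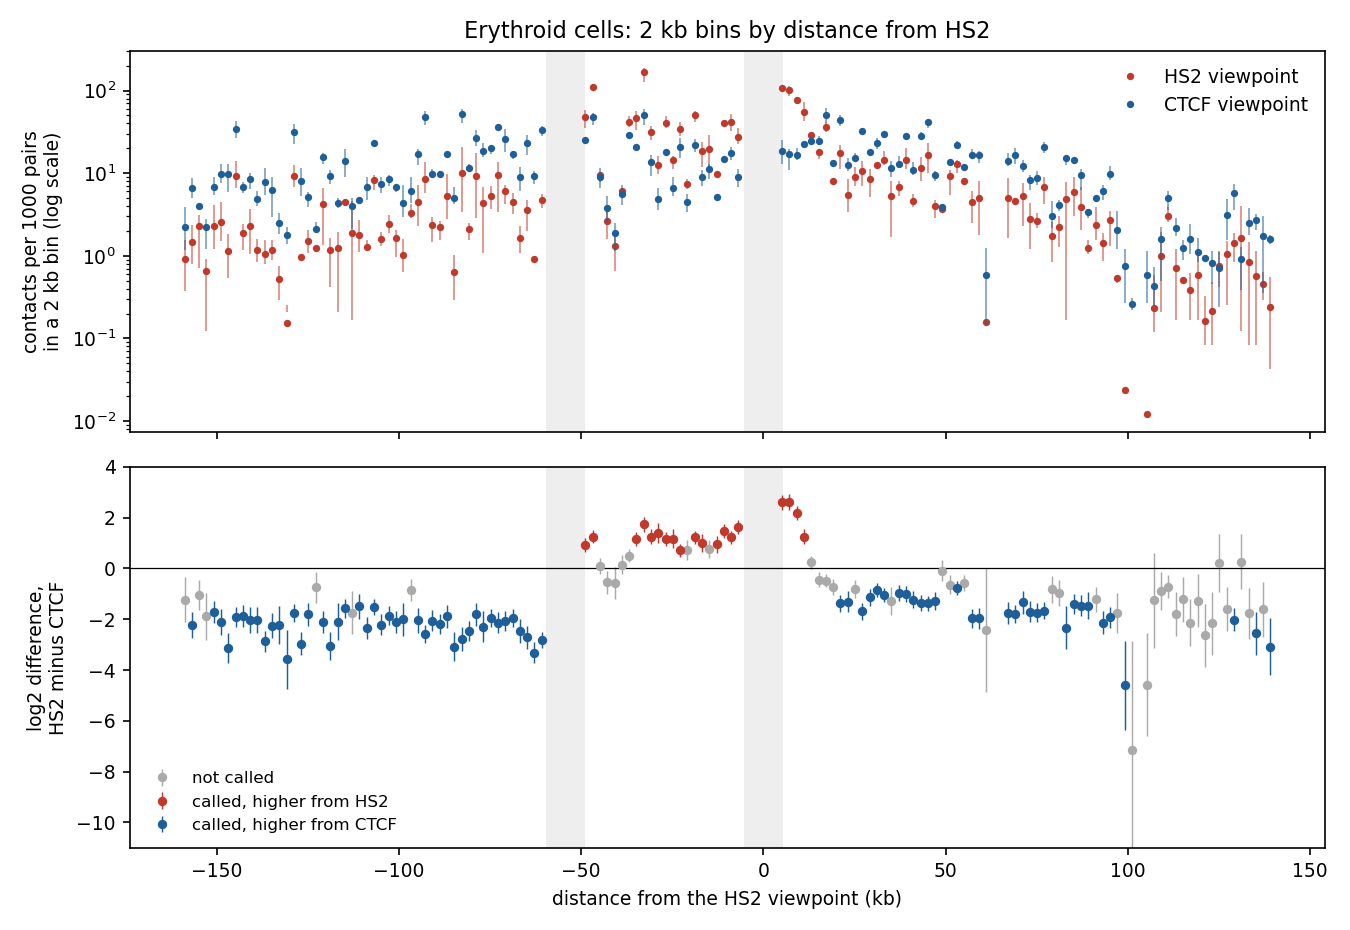
Top, contacts per 1000 pairs in each 2 kb bin (log scale) by distance from HS2 in kb, as the mean of 3 erythroid replicates with their range (replicates at 0 are not drawn) for either viewpoint; bottom, the log2 difference with its SE, coloured where called. Grey bands are the 5 kb around each viewpoint centre, and bins whose own centre lay within them were left out. The red bins fill most of the space between the bands and the first bins right of HS2, up to 2.62, with a gap of uncalled bins between Hbb-bt and Hbb-bs; bins with nearly no HS2 counts have fitted values with wide errors.

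The largest differences towards HS2 were in the LCR: 2.62 (SE 0.32, edgeR adjusted p = 0.000663) in the bin from 111016001 to 111018000, with 101 ± 14.6 contacts per 1000 pairs from HS2 and 16.8 ± 5.24 from the CTCF site, then 2.60 from 111014001 to 111016000 and 2.20 from 111018001 to 111020000. The next were 1.73 (SE 0.28) in the bin from 110976001 to 110978000, which holds the upstream end of Hbb-bs, with 166 ± 33.0 against 50.1 ± 10.4, and 1.63 (SE 0.29) from 111002001 to 111004000, between Hbb-y and HS1. Towards the CTCF site, the bin from 110946001 to 110948000, 8.5 kb outside the CTCF site, had 0.92 ± 0.04 contacts from HS2 and 9.31 ± 1.68 from the CTCF site (-3.31, SE 0.41, edgeR adjusted p = 0.000663). Farther out in the downstream flank, the bin from 110878001 to 110880000 differed by -3.58 (SE 1.15) and that from 110862001 to 110864000 by -3.12 (SE 0.59). In the far upstream flank the bin from 111108001 to 111110000 (-4.61, SE 1.76) had only 6 counts from HS2, all in replicate 3, against 231 from the CTCF site. The bin from 111148001 to 111150000 differed by -3.08 (SE 1.12). The bins from 111108001 and from 110878001 (26 counts from HS2, 481 from the CTCF site) reached the minimum of 50 counts only through the CTCF site. With every fragment pair counted a single time per library, the bin from 110878001 was at -2.27, that from 110862001 at -1.83, that from 110946001 at -2.61 and that from 111148001 at -1.14, and the bin from 111108001 had too few counts to be tested. The Hbb-bs bin was at 2.16 without the shared fragments. Of the 10 bins named, the LCR bins, that between Hbb-y and HS1, and those from 110946001 and 110862001 were called without any 1 replicate; the Hbb-bs bin was not without replicate 1, and the other 3 were lost without each. Without replicate 1, 7 bins were higher and 54 lower from HS2, and without replicate 3, 15 and 39; with DESeq2's size factors 28 were higher and 11 lower, and with TMM factors 26 and 11.

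Pairs show which partners met at the viewpoint on the same allele. Of 90 segment pairs with at least 30 counts, 26 were more frequent from HS2 (28.9%) and 11 less (12.2%). Among the 77 pairs of different segments, 18 were more and 8 less frequent from HS2. All 18 joined segments from Hbb-bt to the LCR beyond HS3, out of 35 such pairs tested, and the 8 had at least 1 partner outside that stretch, out of 42.

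**Figure D3:**
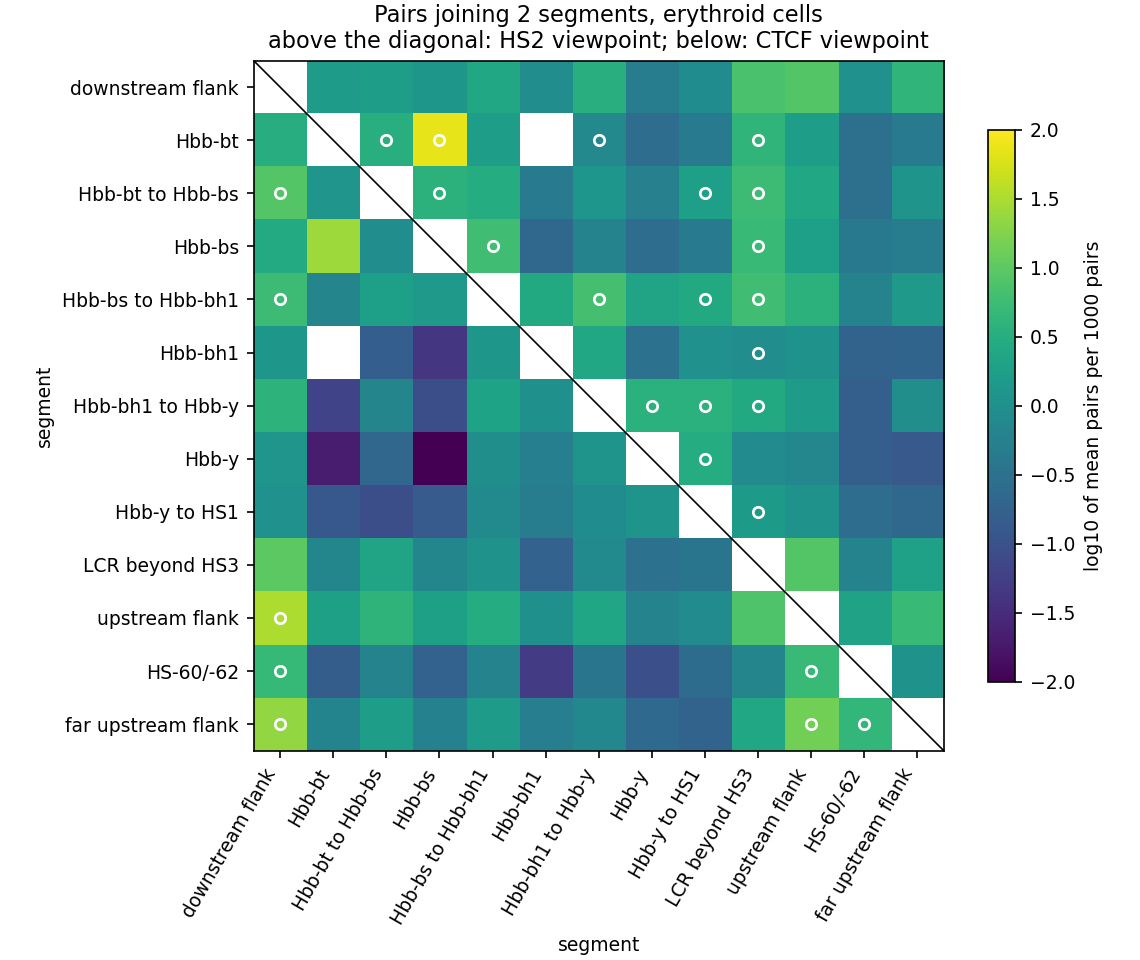
Mean number of pairs joining 2 segments per 1000 pairs (log10 colour scale) over 3 erythroid replicates, from HS2 above the diagonal and from the CTCF site below it; pairs within a segment are not shown, white squares off the diagonal had under 30 counts, and circles mark the viewpoint with the higher value where the difference was called. All circles for HS2 join segments from Hbb-bt to the LCR beyond HS3, and all 8 for the CTCF site have a partner outside that stretch.

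Pairs of Hbb-bs, Hbb-bt and Hbb-bh1 with the LCR were called as more frequent from HS2, and that of Hbb-y was not. Pairs of Hbb-bs with the LCR beyond HS3 numbered 6.06, 6.49 and 2.55 per 1000 pairs from HS2 and 0.129, 0.548 and 1.38 from the CTCF site. Those of Hbb-bt with the LCR numbered 5.39, 4.42 and 2.40 from HS2 and 0.161, 0.690 and 1.17 from the CTCF site. In both cases replicate 3 held the lowest HS2 value and the highest CTCF value, and the viewpoints did not overlap. The differences were 3.24 (SE 0.68, edgeR adjusted p = 0.000542) for Hbb-bs and 2.80 (SE 0.63, adjusted p = 0.000983) for Hbb-bt. For Hbb-bh1 with the LCR the difference was 2.40 (SE 0.91, adjusted p = 0.0376), with 0.924 ± 0.12 pairs against 0.182 ± 0.09 (SD, n = 3). For Hbb-y with the LCR it was 1.43 (SE 0.82) and was not called (adjusted p = 0.182). Without the fragments that the adult genes share, the Hbb-bs difference was 2.85 (adjusted p = 0.078) and that of Hbb-bt 1.93 (adjusted p = 0.289), neither called, and that of Hbb-bh1 2.55 (adjusted p = 0.0238); with every fragment pair counted a single time per library they were 2.87 (adjusted p = 1.25e-14) and 2.49 (adjusted p = 7.80e-12). With 1 replicate left out, the Hbb-bs difference was not called without replicate 1 (2.18, edgeR adjusted p = 0.12) or 2 (3.00, adjusted p = 0.111), nor that of Hbb-bt (1.84, adjusted p = 0.0875, and 2.89, adjusted p = 0.0876), and that of Hbb-bh1 was lost without each of the 3 (1.92 to 2.78). With TMM factors 0 of these 3 pairs were called (2.48, 2.05 and 1.71), and Hbb-bh1 was not called either with DESeq2 (1.90) or without the first technical replicates (2.47).

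Of the 14 tested pairs among the 4 gene windows, the LCR beyond HS3 and HS-60/-62, 4 were more frequent from HS2 and 0 less, a share of higher calls close to the 28.9% over all segment pairs; the 4 are the 3 with the LCR above and Hbb-bt with Hbb-bs (1.46, SE 0.26, edgeR adjusted p = 0.000158). In that pair, 97.3% of the HS2 counts joined fragments that the copies share, so contact between the genes and contact within 1 of them cannot be told apart, and without replicate 1 it was not called (1.40, adjusted p = 0.0734). Hbb-bs with Hbb-y had 40 counts from HS2 and 1 from the CTCF site, and Hbb-bt with Hbb-y 34 and 5, and neither was called (adjusted p = 0.121 and 0.217). HS-60/-62 and the LCR gave no detectable difference, at 0.415, 0.379 and 1.06 pairs per 1000 from HS2 and 0.547, 0.636 and 0.794 from the CTCF site (-0.21, SE 0.78, adjusted p = 0.884), and its pairs with the 4 genes had between 15 and 55 counts from a viewpoint, and 0 of the 4 were called. Hbb-bt with Hbb-bh1 had fewer than 30 counts and was not tested.

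Of the 8 pairs of segments more frequent from the CTCF site, 5 joined the downstream flank with another segment, and 3 joined the upstream flank, HS-60/-62 and the far upstream flank with each other. Pairs of the downstream flank with the far upstream flank numbered 7.22, 2.48 and 2.74 per 1000 from HS2 and 25.7, 24.8 and 17.6 from the CTCF site (-2.60, SE 0.34, edgeR adjusted p = 3.25e-06). Those of the downstream flank with HS-60/-62 numbered 1.05 ± 0.66 from HS2 and 4.72 ± 0.88 from the CTCF site (-2.28, SE 0.48, adjusted p = 0.00056). HS2, the genes and the CTCF site all lie between these partners. Without replicate 1, 2 segment pairs were higher and 4 lower from HS2; with DESeq2's size factors 20 and 17, and with TMM factors 7 and 18.

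At 5 kb, 15 of 828 bin pairs were more frequent from HS2 (1.81%) and 34 less (4.11%). Of the 15, 8 joined fragments of the same bin and 13 lay wholly between the CTCF site and 15 kb beyond HS2. Of the 34, 23 were within a bin and 23 had both partners downstream of the CTCF site. How many of the 828 tested pairs were of each kind is not given here, so these counts are not shares. The 5 largest towards HS2 are named first. The largest joined the bin from 110975001 to 110980000, which holds most of Hbb-bs, with the LCR bin from 111015001 to 111020000 (3.97, SE 0.73, edgeR adjusted p = 5.95e-06). The LCR bin also met the Hbb-bt bin from 110960001 to 110965000 more often (2.72, SE 0.73) and itself (2.61, SE 0.25). The other such pairs joined the bin from 110970001 to 110975000, mostly between Hbb-bt and Hbb-bs, with the bin from 111000001 to 111005000 at Hbb-y and HS1 (3.95, SE 1.25), and the Hbb-bs bin with the bin from 110995001 to 111000000 next to Hbb-y (2.99, SE 0.95). Without the fragments that the adult genes share, the Hbb-bs pair with the LCR was at 3.75 (edgeR adjusted p = 0.00364) and the Hbb-bt pair at 2.03 and not called (adjusted p = 0.24). With every fragment pair counted a single time per library, the last pair was at 1.93.

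Towards the CTCF site, the pair of the bins from 110940001 to 110945000 and from 111065001 to 111070000 had 0 counts from HS2 and 179 from the CTCF site, at least 26.3-fold more per pair in range when HS2 is set to a floor of 3 counts over its 3 replicates. The pair of the bins from 110920001 to 110925000 and from 110945001 to 110950000 had 0 and 171 counts, at least 25.1-fold more. The pair of the bins from 110945001 to 110950000 and from 111060001 to 111065000, the latter at HS-60/-62, had 1 and 174 counts, a ratio of 76.7 (95% exact interval 13.6 to 3046, counting error only). The bounds and the ratio include repeated counts of the same fragment pair. Counted a single time per library, these pairs had 0, 0 and 1 counts from HS2 and 35, 31 and 39 from the CTCF site. The remaining pairs of this group lay within the downstream flank, at -4.93 (SE 1.54, bins from 110870001 and from 110880001) and -4.81 (SE 1.49, bins from 110900001 and from 110915001), or -3.20 and -2.11 with every fragment pair counted a single time per library. Of these 10 named pairs only the LCR bin with itself was called without any 1 replicate. Without replicate 1, 3 and 9 of 701 bin pairs were called in the 2 directions, and without replicate 2, 9 and 22 of 726. With every fragment pair counted a single time per library, 40 and 69 of 236 bin pairs were called. With DESeq2's size factors 33 and 39 of 828 were called, and with TMM factors 25 and 9. Without pairs of neighbouring fragments 7 and 6 of 824 were called.

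The pair counts were next set against the product of both segments' own contact frequencies from the same viewpoint. On that scale 4 of 77 pairs of different segments differed between the viewpoints (5.19%), and pairs of the genes with the LCR were not among them. Hbb-bs with the LCR was seen at 0.272, 0.218 and 0.151 of the product from HS2 and at 0.0503, 0.32 and 0.455 from the CTCF site. Hbb-bt with the LCR was seen at 0.2499, 0.164 and 0.143 from HS2 and at 0.0624, 0.386 and 0.372 from the CTCF site. For both genes the ratio was higher from HS2 in replicate 1 and lower in replicates 2 and 3, and the viewpoints overlapped. Most pairs of different segments were below the product from both viewpoints, so these ratios alone mark no depletion. They include the fragments that the adult genes share. The fitted log2 differences were -0.12 (SE 0.50, edgeR adjusted p = 0.924) and -0.38 (SE 0.51, adjusted p = 0.696), whereas over the summed counts the ratios were 0.193 against 0.358 and 0.1701 against 0.313. The 4 were Hbb-bt to Hbb-bs with Hbb-y to HS1, higher from HS2 (2.68, SE 0.84), and Hbb-bt with Hbb-bs (-1.31, SE 0.40), Hbb-bs to Hbb-bh1 with Hbb-bh1 (-1.51, SE 0.48) and Hbb-y with Hbb-y to HS1 (-1.61, SE 0.49), lower, each at an adjusted p of 0.0386. The number called was 0 without the replicate block, without replicate 2 or without pairs of neighbouring fragments, 1 without replicate 1, 2 without replicate 3, and 12 with every fragment pair counted a single time per library.

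Reads from a viewpoint that also hold a fragment within 5 kb of the other centre show what else met both neighbourhoods on the same allele. The other viewpoint's own fragment was not required, so the 2 sides need not report the same contact. The Hbb-bt window lies beside the 5 kb around the CTCF site, and the LCR window beside that around HS2. There the other fragment can be a near neighbour of the first. From HS2, pairs with a fragment within 5 kb of the CTCF site had their other fragment in Hbb-bt in 99.6, 149 and 88.8 of 1000 cases, and from the CTCF site, pairs with a fragment within 5 kb of HS2 had it there in 38.7 ± 22.2 (SD, n = 3). The viewpoints did not overlap. The LCR beyond HS3 was the other partner in 232 ± 32.0 and 170 ± 59.1 of 1000 cases. In edgeR 0 of 13 segments differed (0%) at an adjusted p under 0.05, 2 had an unadjusted p under 0.05 (Hbb-bt, 1.75, SE 0.74, and Hbb-bs, 1.81, SE 0.80; adjusted p = 0.214 for both, and 2.64 and 2.71 without the shared fragments), and DESeq2 called 1, HS-60/-62, with 3 counts from HS2 and 125 from the CTCF site. Without replicate 3, 2 segments were called, and with every fragment pair counted a single time per library 2 were.

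In ES cells the same viewpoints gave a different division. Of 13 segments 6 had more contacts from HS2 (46.2%) and 5 fewer (38.5%) in edgeR. Hbb-bt had 35.0, 22.6 and 37.8 contacts per 1000 pairs from HS2 and 108, 107 and 78.4 from the CTCF site (-1.64, SE 0.30, adjusted p = 0.0156), so that there the nearer viewpoint had more. Hbb-bs likewise had 36.0, 27.0 and 35.2 from HS2 and 96.1, 88.1 and 64.7 from the CTCF site (-1.34, SE 0.23, adjusted p = 0.0156). Hbb-y, at 2.17 (SE 0.11), Hbb-bh1, at 0.93 (SE 0.29), and the LCR beyond HS3, at 1.52 (SE 0.13), were higher from HS2 in ES cells too. The upstream flank was also higher from HS2 in ES cells (0.44, SE 0.097, edgeR adjusted p = 0.024), whereas in erythroid cells it was lower (-0.98).

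**Figure D4:**
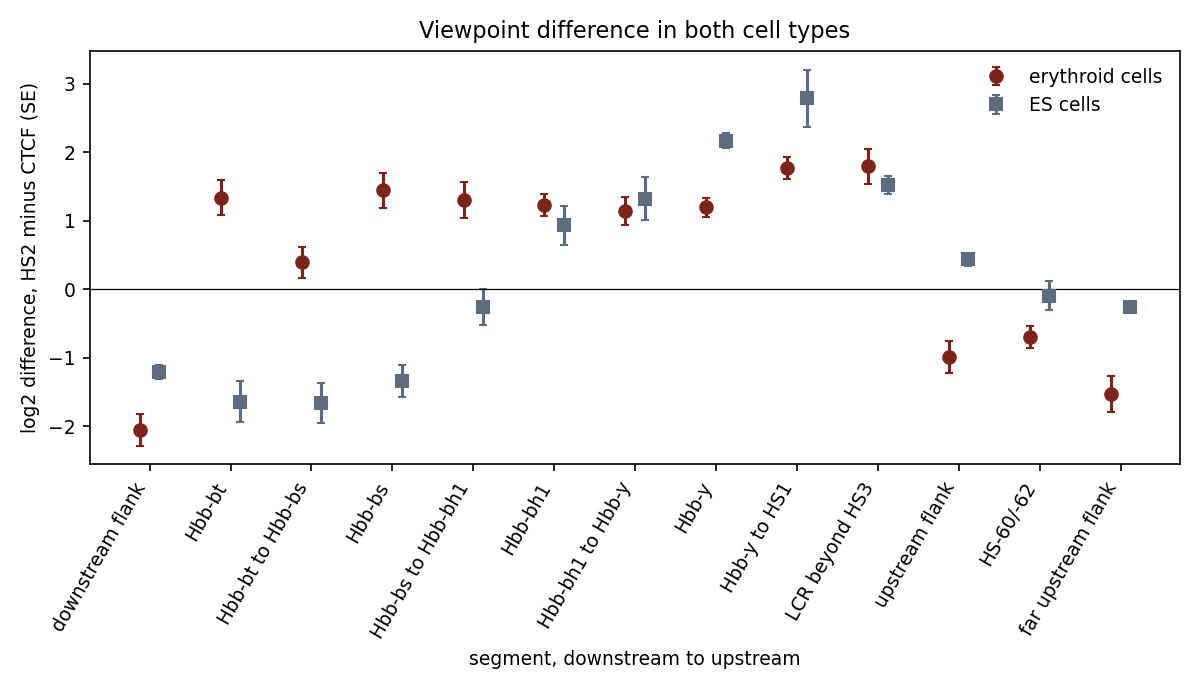
Log2 difference between the viewpoints, HS2 minus CTCF, with its SE (vertical) in each of 13 segments (horizontal), in erythroid cells (circles) and ES cells (squares), each fitted over 3 replicates. Erythroid cells lie above ES cells from Hbb-bt to the stretch before Hbb-bh1, by 2.98 at Hbb-bt, and below them in the flanks.

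The difference between the cell types was tested as the viewpoint by cell type term. It was called in 4 segments where erythroid cells favoured HS2 more (30.8%) and 5 where they favoured it less (38.5%). The 4 were Hbb-bt (2.98, SE 0.41, edgeR adjusted p = 1.41e-07), Hbb-bs (2.78, SE 0.40, adjusted p = 1.43e-07), the stretch between them (2.05, SE 0.39) and that from Hbb-bs to Hbb-bh1 (1.55, SE 0.36). Without the fragments that the copies share, Hbb-bt was at 3.14 and Hbb-bs at 2.78. The embryonic genes were not among the 4: Hbb-bh1 was at 0.29 (SE 0.35, adjusted p = 0.442) and Hbb-y at -0.98 (SE 0.30, adjusted p = 0.00411). The LCR beyond HS3 was at 0.27 (SE 0.31, adjusted p = 0.442). The upstream flank had the most negative term (-1.42, SE 0.20, edgeR adjusted p = 1.43e-07). Its HS2 level was 364 ± 45.3 contacts per 1000 pairs in ES cells and 211 ± 24.3 in erythroid cells. Its CTCF level was 268 ± 28.7 in ES cells and 416 ± 20.1 in erythroid cells (SD, n = 3). The far upstream flank (-1.28, SE 0.25), Hbb-y to HS1 (-1.01, SE 0.37) and the downstream flank (-0.85, SE 0.18) were also called. Hbb-y to HS1 was not called without erythroid replicate 1, 2 or 3 or without ES replicate 2 (-1.06 to -0.55), nor the downstream flank without erythroid replicate 1 (-0.82, edgeR adjusted p = 0.0625). HS-60/-62 was at -0.60 (SE 0.29, adjusted p = 0.059).

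In 2 kb bins the term was called in 6 of 138 bins towards HS2 (4.35%) and in 11 away from it (7.97%). The 6 lay from 110960001 to 110966000 and from 110974001 to 110980000, at and next to both adult genes, and were up to 3.20 (SE 0.48) in the bin from 110962001 to 110964000 and 2.94 (SE 0.47) in that from 110976001 to 110978000. Of the 11, 6 lay in the upstream flank, from 111028001 to 111050000. The pairs in range were fewer in ES replicates 2 and 3 (14193 and 9674 from HS2) than in replicate 1 (40910). Without ES replicate 2, 0 bins were called away from HS2, against 4 without erythroid replicate 2 or 3, and 6 without ES replicate 3; DESeq2 called 14 towards HS2 and 4 away from it, and counting every fragment pair a single time per library called 12 and 17.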

How the data were processed

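Per the file headers and values, the authors deposited, for each viewpoint, whole-number counts of NlaIII fragment pairs in 17 libraries; the tables of the alpha-globin viewpoints were not used. The submitters' processing notes name Trim Galore, Bowtie and mm9, with no version, role or order; read filters and duplicate removal are not given in the sources used here. Technical replicates were summed. Counts per 2 kb bin (at least 50), segment, pair of 5 kb bins or pair of segments (at least 30) were tested in edgeR 4.0.16 (glmQLFit, glmQLFTest; library size, the pairs in range; normalization factors 1) with the replicate as a block, because both viewpoints come from the same libraries; SE is the difference over the square root of F. Deviations of same-numbered columns over 137 bins correlated at -0.20, -0.15 and -0.03. P-values were adjusted by Benjamini-Hochberg. Alternatives included DESeq2 1.42.0, TMM factors, other scales, bins and minimum counts, no block, leaving out replicates and counting pairs a single time per library; leaving out neighbouring fragments or gene copies was chosen after seeing the data. On simulated counts for the 137 bins, 3 of 12 changes of 1, 10 of 12 of 2 and 10 of 10 of 4 on the log2 scale were called; for the 828 bin pairs, 0 of 68, 0 of 66 and 11 of 66; for the 90 segment pairs, 0 of 8, 4 of 8 and 5 of 6, with 1 unchanged pair called. Named were all segments, all pairs among the 4 genes, the LCR beyond HS3 and HS-60/-62, and per direction the 5 called bins and bin pairs of largest difference whose replicates did not overlap. Members and lists were chosen with earlier results of these data known. Gene names and promoters are from RefSeq tables of GRCm38.p6.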

Additional observations from a re-analysis of the deposited data

Results flagged for a closer look

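The difference between the viewpoints, HS2 minus CTCF, itself differed between erythroid and ES cells in 9 of 13 segments, by edgeR's viewpoint by cell type term with Benjamini-Hochberg adjustment. On the log2 scale, erythroid minus ES, it was 2.98 at Hbb-bt, 2.05 between Hbb-bt and Hbb-bs, 2.78 at Hbb-bs and 1.55 between Hbb-bs and Hbb-bh1. It was -0.85 in the downstream flank, -0.98 at Hbb-y, -1.01 between Hbb-y and HS1, -1.42 in the upstream flank and -1.28 in the far upstream flank. The 4 positive terms kept their call in each of 11 alternatives, and of the negative ones the upstream and far upstream flanks did. The term between Hbb-y and HS1 lost its call in 7 of 11 alternatives.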

How the results depend on the processing

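The number of bins and bin pairs tested changed with the setting and is given with the counts. Bins higher from HS2, 19 of 137, were 11 of 70 with 4 kb bins and 12 of 127 with a 10 kb zone left out. They were 7 to 15 of 136 or 137 when a replicate was left out. Bins lower, 75 of 137, were 45 of 70 with 4 kb bins and 11 of 137 with DESeq2 and with TMM factors. Without a replicate they were 39 to 62. Segments higher from HS2, 8, were 2 with DESeq2 and 3 with TMM factors. The stretch between Hbb-bt and Hbb-bs turned to -0.65 with DESeq2 and -0.55 with TMM factors and was called higher in 6 other alternatives. DESeq2 and TMM factors moved the median bin from -1.59 to -0.38 and -0.30. Bin pairs higher, 15 of 828, were 33 with DESeq2 and 25 with TMM factors, both of 828. They were 40 of 236 with pairs counted a single time per library and 38 of 227 when neighbouring fragments were also left out. They were 9 of 769 without the first technical replicates and 7 of 824 without neighbouring fragments. Leaving out replicate 1, 2 or 3 gave 3 of 701, 9 of 726 and 14 of 518. Bin pairs lower, 34 of 828, were 96 without the replicate block and 9 with TMM factors, both of 828. They were 69 of 236 counted a single time and 57 of 227 also without neighbouring fragments. They were 21 of 769 without the first technical replicates, 6 of 824 without neighbouring fragments and 69 of 336 with 10 kb bins. Leaving out replicate 1, 2 or 3 gave 9 of 701, 22 of 726 and 24 of 518. Segment pairs higher, 26 of 90, were 7 of 90 with TMM factors and 2 to 23 of 83 to 89 without a replicate. Those lower, 11 of 90, were 17 with DESeq2, 18 with TMM factors and 4 to 12 without a replicate. Pairs of HS-60/-62 that were not called changed sign: with Hbb-bt at -0.069 (DESeq2), -0.24 (TMM) and -0.43 to 1.33 (without a replicate), with Hbb-bs at -0.46, -0.48 and -1.12 to 1.08, with Hbb-y at -0.85, -0.49 and -1.86 to 1.83, with Hbb-bh1 at -0.12 to 2.04 (without a replicate), and with the LCR at -0.57 to 0.0345 (without a replicate), 0.54 (counted a single time) and 0.61 (also without neighbouring fragments); Hbb-bh1 with Hbb-y, not called, was at 0.53 and 0.59 in the latter 2 settings. Pairs called against the product, 4, were 0 without the replicate block, 0 without neighbouring fragments, 12 counted a single time, 7 in both, 8 with DESeq2, 1 without the first technical replicates and 0 to 2 without a replicate. Further partners of joint contacts called, 0, were 2 counted a single time, 2 also without neighbouring fragments, 1 with DESeq2 and 0 to 2 without a replicate. Cell type terms in bins, 6 and 11, were 12 and 17 counted a single time, 14 and 4 with DESeq2, 5 lower without the gene copies, and 4 to 8 and 0 to 9 without a replicate; negative terms in segments, 5, were 3 counted a single time and 3 to 6 without a replicate. The term changed sign at Hbb-bh1 (-0.26 with DESeq2, -0.13 without neighbouring fragments), between Hbb-bh1 and Hbb-y (0.12 without ES replicate 3) and at the LCR (-0.28 with DESeq2), none called. The share of contacts within 5 kb of the other viewpoint differed by 0.00695 points without the first technical replicates, 0.0346 without neighbouring fragments and -0.41 to 0.30 without a replicate; pairs on both sides of the viewpoint by 0.27 counted a single time. The cause of these changes was not tested. Without the replicate block 20 bins were higher and 82 lower, and 9 segments higher and 4 lower. In simulated counts at these depths, 0 of 66 changes of 2 on the log2 scale were called among 828 bin pairs.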
